A study of Rattus norvegicus with 16 samples.

Results

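Mammary glands of young female rats that had been exposed to genistein before weaning were compared between postnatal day (PND) 50 and PND35. The comparison set the 2 pools titled genistein alone at PND50 against the 2 pools titled genistein alone at PND35, which are 4 of the 16 arrays of the series. Wistar Han mothers on a purified diet without phytoestrogens were gavaged once a day with genistein at 1 mg per kg body weight, from gestational day 1 until weaning at PND 21, and their daughters then stayed on that diet with no further dosing. Control daughters had the same diet and mothers given no compound by the labels, vinclozolin daughters had mothers given 1 mg per kg of that antiandrogenic fungicide, and mixture daughters had mothers given both doses. Dams were allotted in groups of 15, and 1 daughter per litter was used. An array held RNA mixed from 5 individual glands, so each age of this comparison stands on 10 animals seen as 2 values, and the spread between single animals cannot be read from it. The values are log2 intensities of Affymetrix probe sets, on which a difference of 1 is a doubling.

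Between both ages the rat mammary gland passes from the phase of growing, branching ducts to the gland of the cycling virgin. Ducts made of an inner luminal and an outer basal, contractile layer of epithelium advance through a fat pad that also holds vessels, connective tissue and immune cells. Macrophages, eosinophils and mast cells gather around the growing ducts, and cell division is concentrated in their tips. Genistein, an isoflavone of soybeans, can bind the receptors of estrogen, the hormone that drives ductal growth at this stage.

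The whole gland was pooled, so the arrays also carried fat, blood and any muscle or lymph node taken with it, and fewer cells of a type cannot be told apart from less RNA per cell. Markers of the labelled tissue were present in all genistein pools: the casein gene Csn1s1 stood at 12.74 or more and the luminal keratin gene Krt8 at 9.74 or more. The pools of one group correlated at 0.9952 for genistein at PND35 and 0.9959 at PND50, and the 8 groups ran from 0.9893 to 0.9966. Only the vinclozolin PND35 pools correlated less than genistein at PND35. Next lowest were genistein at PND50 and, level with it, mixture at PND35 (0.9959). The vinclozolin pools at PND35 had the lowest correlation and stood apart through hair and skin genes, whose score there was 2.51 and 2.21 against -0.45 to -0.28 in the other 14 pools. Leaving both out raised the number of genes called in the genistein comparison from 327 to 432; all groups share 1 estimate of the spread. Only 2 pools per group limit the precision, the median standard error (SE) of a log2 fold change being 0.0941, and a p-value speaks for the spread of like pools alone.

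After genistein, 327 of 11796 tested genes (2.77%) differed between PND50 and PND35 (limma, adjusted p under 0.05). At PND50 96 were higher and 231 lower, which is 0.814% and 1.96% of the genes. The highest log2 fold changes past the test were those of Mrgprg, Tacr1, Retnlg and Jchain, and the lowest those of Alox15, Pvalb, Slc4a1 and Hbb. Changes were mostly small: the median log2 fold change was 0.46 among the higher and -0.39 among the lower genes, and 4 higher and 3 lower genes reached a doubling or a halving. The pools of both ages did not overlap for any of the 327 genes, a condition that 18.9% of all genes met upward and 33.6% downward. The count rests on single pools: 0 genes were called without genistein PND50 replicate 1 (limma, 1546 at an unadjusted p under 0.05, against 2744 with all pools), 2 without genistein PND35 replicate 2, 107 without genistein PND35 replicate 1 and 207 without genistein PND50 replicate 2. Pools of other groups enter through the shared spread: the count was 129 or 130 when 1 mixture PND50 or control PND35 pool was dropped, 158 when 1 vinclozolin PND50 pool was, and 170 when 1 mixture PND35 pool was.

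The excess of lower calls moved with the scaling. The median of all genes was -0.03 with the values as deposited and 0.00 after quantile normalization, under which 91 genes were higher and 49 lower. Centring each array on its median gave 79 higher and 99 lower genes. Of the 15 highest genes past the test 13 were called under both scalings, and of the 15 lowest 6 were. Sorted by mean level into 4 classes of equal size, the genes had a median log2 fold change of 0.04 in the dimmest class and of -0.05, -0.07 and -0.04 in the brighter ones. The 75th percentile of an array was 8.666 and 8.642 in the PND35 pools and 8.582 and 8.579 in the PND50 pools.

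**Figure D1:**
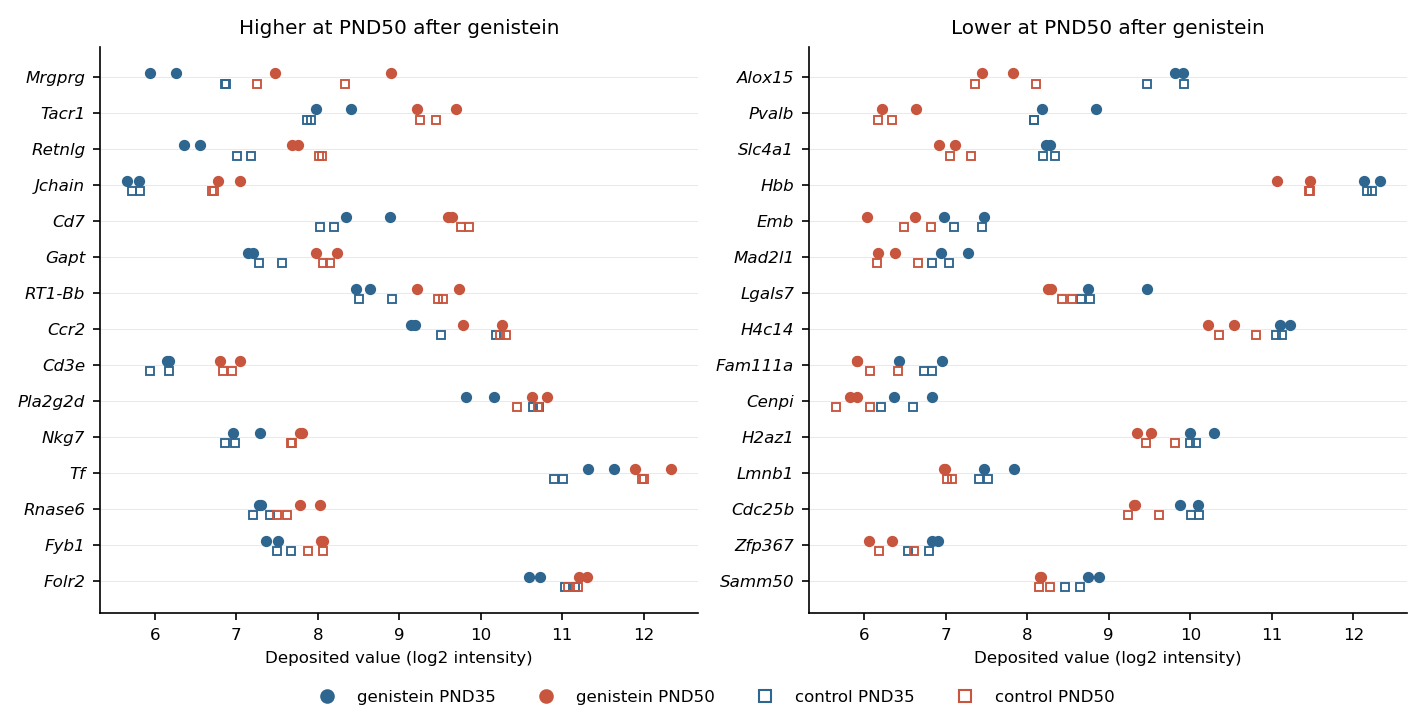
Deposited log2 intensity (horizontal axis) of the 15 highest and 15 lowest genes past the limma test with non-overlapping pools, one row per gene. Filled circles are single genistein pools and open squares single control pools, blue at PND35 and red at PND50; for Alox15 the genistein pools stood at 9.81 and 9.91 at PND35 and at 7.45 and 7.82 at PND50, and the control pools lay close to them.

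Among receptors, Mrgprg, a member of the Mas-related family of G protein coupled receptors, stood at 6.25 and 5.94 in the PND35 pools and at 7.48 and 8.90 in the PND50 pools. The ages did not overlap, but the older pools lay far apart. It rose 4.27-fold (log2 2.09, SE 0.40, n = 2 pools per age, limma adjusted p = 0.0307), and the same contrast in controls gave 0.94 (SE 0.40, adjusted p = 0.246). Tacr1, the receptor of substance P, stood at 8.41 and 7.98 at PND35 and at 9.70 and 9.22 at PND50. It rose 2.40-fold (log2 1.26, SE 0.18, adjusted p = 0.0181), and in controls, where it also passed, by 1.46. Ccr2, the chemokine receptor that brings monocytes into tissue, was at 9.19 and 9.15 in the younger and 10.26 and 9.78 in the older pools, a rise of 0.85 (SE 0.19, adjusted p = 0.0438). In the control pools at PND35 Ccr2 stood at 10.19 and 9.52, above both genistein pools of that age.

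Secreted proteins among the highest genes were those of white blood cells and of the gland itself. Retnlg, a resistin-like protein of myeloid cells, was at 6.35 and 6.56 at PND35 and at 7.75 and 7.68 at PND50. These pools were close together within each age, and the adjusted p of its rise of 1.26 (SE 0.12) was the smallest of all genes (limma, 0.0047). Jchain, the chain that joins immunoglobulin units, was at 5.80 and 5.66 and then at 7.04 and 6.77, and rose by 1.17 (SE 0.15, adjusted p = 0.0178). Tf, which encodes the iron carrier transferrin, was at 11.64 and 11.32 and then at 12.33 and 11.89, and rose by 0.63 (SE 0.14, adjusted p = 0.0454). All 3 genes also passed in controls, with 0.94, 0.95 and 1.03. Pla2g2d, a secreted phospholipase, went another way in controls. It was at 9.82 and 10.17 in the younger genistein pools and 10.82 and 10.63 in the older ones, a rise of 0.73 (SE 0.13, adjusted p = 0.0272), while the control pools lay between 10.45 and 10.71 at both ages.

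Antigen presentation held the largest share of higher genes among the lists. The lists and their members were chosen with earlier results of these data known, so list counts here and below describe and test nothing. Class II molecules display peptides to helper T cells; Ciita switches their genes on, Cd74 chaperones the new chains, and RT1-DMa and RT1-DMb load the peptide. Of the 15 tested genes of the list 8 rose and none fell, against 0.814% of all genes, and all 15 had a positive log2 fold change with a median of 0.39. The beta chain gene RT1-Bb was at 8.47 and 8.64 at PND35 and 9.21 and 9.74 at PND50, and rose by 0.92 (SE 0.21, limma adjusted p = 0.0465). Its partner RT1-Ba was at 9.03 and 8.93 and then at 9.55 and 9.51, and rose by 0.55 (SE 0.08, adjusted p = 0.0197). Cd74 rose by 0.42 (SE 0.07), Ciita by 0.44 (SE 0.07), RT1-DMb by 0.51 (SE 0.09) and RT1-Db1 by 0.44 (SE 0.08), and the other risers were Ccr2 and Flt3, a receptor of dendritic cell precursors. RT1-Da (0.38, adjusted p = 0.0891) and RT1-DMa (0.31) did not pass, nor did the dendritic cell receptors Xcr1 (0.39) and Clec9a (0.05). In controls the list had a median of 0.35 with 4 genes higher, against 0.627% of all genes there. No member differed between both age changes at an unadjusted p under 0.05 (limma). Class II genes are close copies of each other, so a probe set may read more than 1 of them. The count of 8 was 7 under either other scaling, 0 without genistein PND35 replicate 2 or genistein PND50 replicate 1, 2 without genistein PND35 replicate 1, and 5 without either control PND50 pool.

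The promoters of the class II chain genes are shown because 3 of these 4 genes rose (RT1-Da did not pass) and because they are known to share a pair of control elements, the X box and the Y box, read by the factors that recruit Ciita. Each stretch holds the 120 bases before the annotated start, 5′ to 3′ on the gene's strand, from RefSeq's annotation of GRCr8: RT1-Ba at chr20:4576937-4577056 (plus strand), RT1-Bb at chr20:4604119-4604238 (minus strand), RT1-Db1 at chr20:4560163-4560282 (minus strand) and RT1-Da at chr20:4515295-4515414 (plus strand). Capitals mark matches to the X box, searched as a pattern with some positions free, or to the Y box, GATTGG, both on either strand.
RT1-Ba: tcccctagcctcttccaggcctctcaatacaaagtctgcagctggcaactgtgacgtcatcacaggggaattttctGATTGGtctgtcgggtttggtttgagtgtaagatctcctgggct
RT1-Bb: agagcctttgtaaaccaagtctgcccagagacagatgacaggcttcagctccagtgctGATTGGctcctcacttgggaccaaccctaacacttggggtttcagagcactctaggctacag
RT1-Db1: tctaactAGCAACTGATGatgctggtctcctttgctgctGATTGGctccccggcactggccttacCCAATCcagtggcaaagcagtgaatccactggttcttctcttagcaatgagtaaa
RT1-Da: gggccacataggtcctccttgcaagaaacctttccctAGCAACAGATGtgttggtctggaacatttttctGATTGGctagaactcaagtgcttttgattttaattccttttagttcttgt
A Y box stood in all 4 stretches, at positions -44 to -39 in RT1-Ba, -62 to -57 in RT1-Bb, -81 to -76 in RT1-Db1 and -50 to -45 in RT1-Da, and RT1-Db1 had another on the opposite strand. The X box pattern was found in RT1-Db1 and RT1-Da. Of 33469 promoters of the same length 7.92% held a Y box, 0.12% an X box and 0.0179% both. Of the 13 list genes with a promoter in the table, 5 held a Y box (38.5%) and 2 an X box. The Y box was as frequent in the list of mitosis genes described below, in 8 of 20 promoters (40%). The Y box contains the letters of a CCAAT box on the other strand, and a match describes the sequence only.

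Of 18 T and natural killer cell genes 4 rose, none fell and 14 did not pass, against 0.814% higher among all genes. All 18 were positive, and the median was 0.42. Cd7, a surface protein of these cells, was at 8.89 and 8.35 at PND35 and at 9.64 and 9.60 at PND50. The younger pools were uneven and below both older ones. Cd7 rose by 1.00 (SE 0.14, limma adjusted p = 0.0186), against 1.70 (SE 0.14) in controls, a difference of -0.70 (SE 0.20, unadjusted p = 0.00535, adjusted p = 0.568). Cd3e, part of the T cell receptor complex, was at 6.17 and 6.15 and then at 7.04 and 6.80, and rose by 0.76 (SE 0.10, adjusted p = 0.0178). Nkg7, a granule protein of cytotoxic cells, rose by 0.67 (SE 0.11), and Klrd1, a natural killer cell receptor, by 0.53 (SE 0.12). The protease gene Gzma had 0.18 (SE 0.10, adjusted p = 0.286) after genistein and 0.92 (SE 0.10) in controls, where it rose. Of the 25 genes in the list 5 were measured but lay under the filter on dim probe sets, among them Cd3d and Cd8b. Of 9 B and plasma cell genes 2 rose and 7 did not pass, beside the same 0.814%: Jchain and Fcrla (0.47, SE 0.10), and the B cell genes Ms4a1 (0.09) and Cd79b (0.19) did not pass. The 4 risers of the T and natural killer list were 0 without genistein PND35 replicate 2 or genistein PND50 replicate 1.

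All 19 macrophage genes had a positive log2 fold change, with a median of 0.26, and 2 rose, against 0.814% of all genes. Fcer1g, the signalling chain of several Fc receptors, was at 10.43 in both PND35 pools and at 10.96 and 10.94 at PND50, and rose by 0.52 (SE 0.12, limma adjusted p = 0.0481). Siglec1, a sialic acid receptor of resident macrophages, rose by 0.40 (SE 0.09). Cd68, a lysosomal protein, was at 9.41 and 9.40 and then at 9.91 and 9.96, a difference of 0.53 (SE 0.16) that did not pass (adjusted p = 0.0919). C1qb, a complement chain, had 0.45 (SE 0.12, adjusted p = 0.0607). Folr2, a folate receptor of resident macrophages that is no list member, was at 10.59 and 10.73 and then at 11.31 and 11.21, and rose by 0.60 (SE 0.12, adjusted p = 0.0364). The 15 macrophage genes whose pools did not overlap upward compare with 18.9% of all genes. Under median centring neither riser passed, nor without any single genistein pool or either control PND35 pool.

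The macrophage list had no such median in controls (0.00, with 9 genes positive and 10 negative). Its median was 0.16 after vinclozolin and 0.09 after the mixture. At an unadjusted p under 0.05, 7 of 19 had a more positive age change after genistein than in controls, against 2.06% of all genes; none passed after adjustment. The count was 1 without control PND35 replicate 2 or control PND50 replicate 2, 2 without genistein PND35 replicate 1, and 3 when 1 genistein PND50 pool was dropped. The list's median of genistein minus control was -0.28 at PND35 and 0.04 at PND50, with 0 genes called by limma at either age over all genes tested (1311 and 307 at an unadjusted p under 0.05), and the macrophage score (centred log2 values of a pool averaged over the tested members) was -0.13 and -0.10 in the genistein and 0.10 and 0.16 in the control pools at PND35. Folr2 was at 11.03 and 11.15 in the younger controls, whose age change was 0.04, which differed from the genistein change by 0.56 (SE 0.18, unadjusted p = 0.00763, adjusted p = 0.569).

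Signalling molecules of the immune response showed fewer calls. Of 22 chemokine genes 1 rose, against 0.814% of all genes: Ccl4, which attracts monocytes and T cells (0.31, SE 0.07, limma adjusted p = 0.0454). It did not pass under median centring. Of the 22 genes 18 were positive, with a median of 0.28. Of 19 interferon response genes none passed, although 17 were positive (median 0.33). Usp18, which removes the ubiquitin-like Isg15 from proteins, was at 6.22 in both PND35 pools and at 7.77 and 7.44 at PND50. That difference of 1.38 (SE 0.39) did not pass (adjusted p = 0.0727), nor did the antiviral genes Oasl2 (0.81), Mx2 (0.71) and Rsad2 (-0.83). Of 11 mast cell genes 1 fell, against 1.96% of all genes: Hdc, the enzyme that makes histamine. It was at 8.01 and 8.07 and then at 7.65 and 7.53, and fell by 0.45 (SE 0.09, adjusted p = 0.037). The mast cell median was -0.17 after genistein and -0.42 in controls, and it was -0.40 without genistein PND50 replicate 1 and 0.05 without replicate 2.

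**Figure D2:**
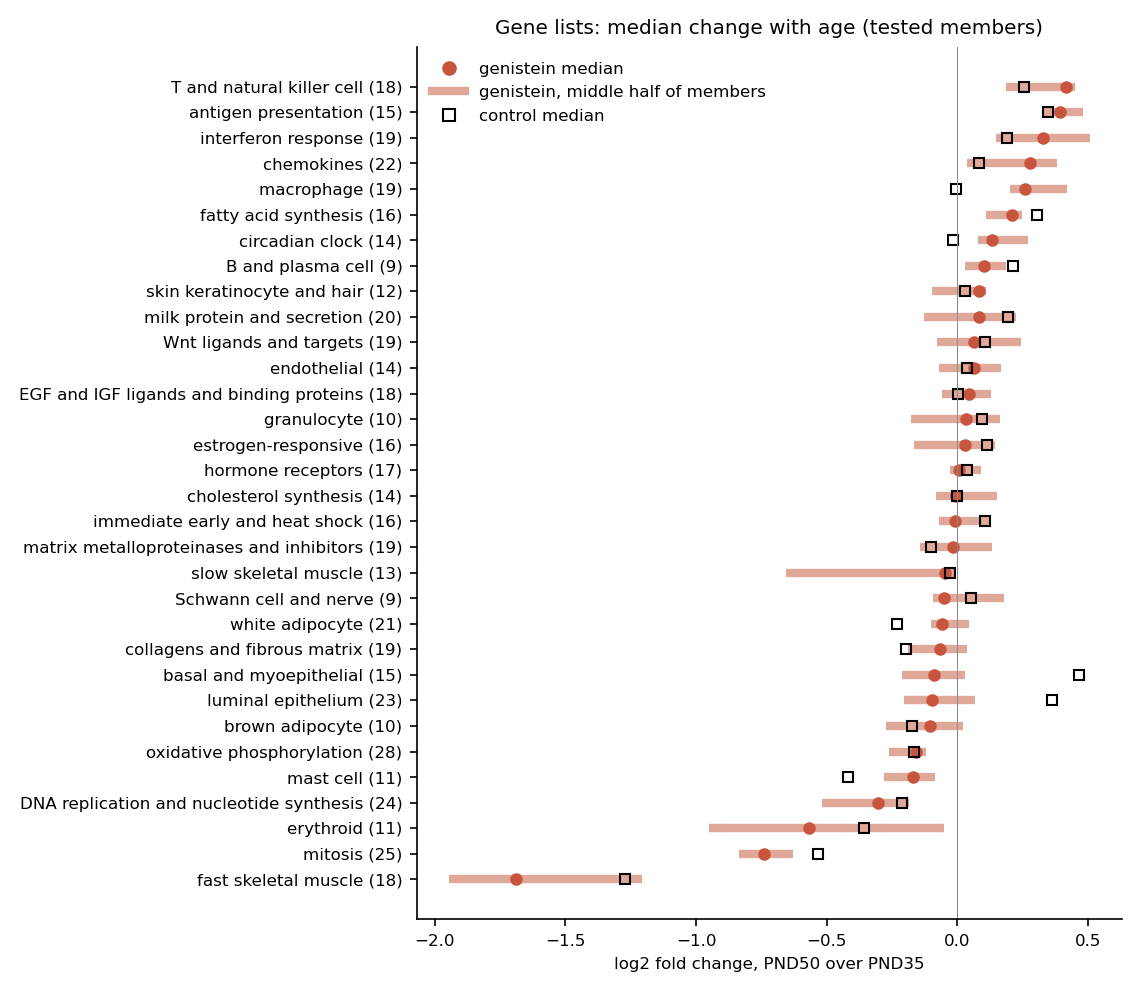
Median log2 fold change between PND35 and PND50 of 32 gene lists, with the number of tested genes in brackets. Red points are genistein medians with a bar over the interquartile range of the members, and open squares are control medians; fast skeletal muscle (-1.69 against -1.27) and mitosis (-0.74 against -0.53) lie lowest, and luminal (-0.10 against 0.36) and basal (-0.09 against 0.46) epithelium show the widest gaps.

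Of 25 mitosis genes 1 passed the test, although all were negative. The 25 mitosis genes had a negative log2 fold change, with a median of -0.74 against -0.03 for all genes, and for 24 the pools did not overlap, against 33.6% of all genes. Mad2l1, which holds the spindle checkpoint, was the 1 that fell, against 1.96% of all genes. It was at 6.95 and 7.27 at PND35 and at 6.16 and 6.38 at PND50, and fell by 0.84 (SE 0.19, limma adjusted p = 0.0438). The cyclin gene Ccnb1 was at 8.10 and 8.85 and then at 7.42 and 7.56, a difference of -0.98 (SE 0.27) that did not pass (adjusted p = 0.0695). Cdc20, an activator of the complex that starts anaphase, was at 8.95 and 9.54 and then at 8.27 and 8.41 (-0.90, SE 0.24, adjusted p = 0.0622). Prc1, which bundles microtubules between separating chromosomes, had -0.84 (SE 0.22), and Bub1, a checkpoint kinase, had -0.84 (SE 0.22). In these genes replicate 2 was the higher of the PND35 pools: the mitosis score was 0.03 and 0.58 at PND35 and -0.44 and -0.34 at PND50. The median was -0.44 without genistein PND35 replicate 2 and -1.04 without replicate 1, and no mitosis gene passed without any single genistein pool, without either control PND35 pool or under either other scaling, while 7 did without either control PND50 pool. In controls all 25 were negative as well (median -0.53), and none of them differed between both age changes at an unadjusted p under 0.05. The older control pools lay far apart, however: the control mitosis score was 0.39 and 0.16 at PND35 and -0.60 and 0.09 at PND50. The list's median of the genistein minus the control age change was -0.16 with all pools. It became -0.51 once replicate 1 of the older controls was dropped, and 0.17 once replicate 2 was. It was 0.14 without genistein PND35 replicate 2 and -0.46 without genistein PND35 replicate 1. The sign of that difference therefore hangs on single control or genistein pools.

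Promoters of mitosis genes are known for CCAAT boxes and for an element called the CHR, through which they are repressed in resting cells. Those of Cdc20 (chr5:137255800-137255919, minus strand) and Prc1 (chr1:143659361-143659480, plus strand) are shown as examples that hold both; neither gene passed the test. The 120 bases before the start, from RefSeq's annotation of GRCr8, run 5′ to 3′ on the gene's strand, and capitals mark CCAAT or TTTGAA (the CHR), searched on both strands.
Cdc20: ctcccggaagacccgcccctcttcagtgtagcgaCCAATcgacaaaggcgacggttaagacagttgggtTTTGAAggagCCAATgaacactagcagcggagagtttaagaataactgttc
Prc1: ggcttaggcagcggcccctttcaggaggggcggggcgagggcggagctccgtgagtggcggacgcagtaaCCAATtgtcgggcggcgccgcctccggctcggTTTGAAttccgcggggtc
Of the 20 mitosis genes with a promoter in the table, 13 held a CCAAT box, 6 the CHR letters and 6 both. Among all 33469 promoters of that length 19.9% held a CCAAT box, 7.11% the CHR letters and 1.54% both. No test was made of these shares, and a match is not a bound site.

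Of 24 replication and nucleotide synthesis genes 2 fell, against 1.96% of all genes, and 22 did not pass; all 24 log2 fold changes were negative (median -0.30). Dut, which keeps uracil out of DNA, was at 7.46 and 7.65 and then at 6.80 and 7.17, and fell by 0.57 (SE 0.10, limma adjusted p = 0.0272). Tyms, which makes thymidylate, was at 8.65 and 8.89 and then at 8.23 and 8.27, and fell by 0.52 (SE 0.10, adjusted p = 0.0307). Rrm2, a subunit of ribonucleotide reductase, had -0.79 (SE 0.33) and did not pass (adjusted p = 0.181). The variant histone gene H2az1 stood no higher than 9.52 in the PND50 pools, below both PND35 pools, and fell by 0.71 (SE 0.12, adjusted p = 0.0272). H4c14, a histone H4 gene with near-identical copies whose reads its probe set may share, fell by 0.79 (SE 0.15). Other genes of the nucleus and cell cycle among the lowest were Lmnb1, a lamin (-0.68, SE 0.10), Cenpi, a centromere protein (-0.74, SE 0.17), Cdc25b, a phosphatase that activates cyclin-dependent kinases (-0.67, SE 0.15), and Fam111a, a protease of replicating cells (-0.78, SE 0.19). Each had a negative control change, from -0.64 for Cdc25b to -0.42 for Lmnb1, and none of these 4 passed there. After genistein, Cenpi, Cdc25b and Fam111a passed under neither other scaling, and Tyms did not pass after quantile normalization. Dut had -0.16 in controls and differed by -0.41 (SE 0.14, unadjusted p = 0.015, adjusted p = 0.578).

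Skeletal muscle genes had the lowest median of any list. All 18 fast muscle genes were negative with pools that did not overlap (median -1.69, against -1.27 in controls), a separation that 33.6% of all genes showed, and 2 fell, against 1.96% of all genes. Neither passed after quantile normalization or without any single genistein pool, 1 passed after median centring or without any single control pool, and without single genistein pools the median ran from -2.02 to -1.27. Pvalb, the calcium buffer of fast fibres, was at 8.18 and 8.84 at PND35 and at 6.22 and 6.64 at PND50. It fell by 2.09 (SE 0.48, limma adjusted p = 0.0457), and the control pools went from 8.08 in both to 6.34 and 6.17. Amd1, an enzyme of polyamine synthesis made in many tissues, fell by 0.45 (SE 0.10). Myh4, a fast myosin heavy chain, was at 8.97 and 9.99 and then at 6.50 and 7.38, and its difference of -2.54 (SE 0.66) did not pass (adjusted p = 0.0611). The fast muscle score was 0.44 and 0.99 at PND35 and -1.11 and -0.54 at PND50. Of 13 slow muscle genes none passed, and their median was -0.05 (0.36 with the covariate described next). A fit of each gene with a score over both muscle lists as a covariate called 1 gene, Retnlg. That score differed between the ages itself (0.27 and 0.64 against -0.78 and -0.38), so the fit cannot fully part muscle from age. How much of the other changes went with muscle in a pool was not estimated. With this covariate the fast muscle median was -0.34, the mitosis median -0.68, the antigen presentation median 0.33 and the macrophage median 0.28. The T and natural killer cell median was 0.27 against 0.42 without the covariate, and the B and plasma cell median 0.05 against 0.10. Fatty acid synthesis had 0.09 against 0.21, and white adipocyte genes 0.04 against -0.06. The muscle genes make up the score, so the shift of their own medians was built in.

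Of 11 erythroid genes 2 fell, against 1.96% of all genes, and 2 had a positive log2 fold change. Slc4a1, the anion exchanger of the red cell membrane, was at 8.23 and 8.28 and then at 6.91 and 7.12, and fell by 1.24 (SE 0.28, limma adjusted p = 0.0434). The globin gene Hbb, whose probe set may read other beta globin copies, was at 12.14 and 12.33 and then at 11.07 and 11.47, and fell by 0.96 (SE 0.19, adjusted p = 0.0364). The other 9 did not pass, among them Ahsp, the chaperone of alpha globin (-1.27, SE 0.35), and Alas2, which starts haem synthesis in red cells (-0.94, SE 0.23). The list median was -0.57, and -0.36 in controls. Neither faller passed without genistein PND35 replicate 1 or 2, genistein PND50 replicate 1 or either control PND35 pool, and 1 of them passed under either other scaling.

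Alox15, a lipoxygenase that adds oxygen to arachidonic and linoleic acid, had the lowest log2 fold change of the called genes. It was at 9.81 and 9.91 at PND35 and at 7.45 and 7.82 at PND50. The fall was 4.67-fold (log2 -2.22, SE 0.31, limma adjusted p = 0.0181), with a control change of -1.97 (SE 0.31) that passed as well. It was the single gene called when the fit used the genistein pools alone. Alox15 is made in eosinophils among other cells, and it was the 1 faller of 10 granulocyte genes (median 0.03), against 1.96% of all genes. The eosinophil granule gene Prg2 had -0.23 and did not pass, and the eosinophil genes Epx, Il5ra and Ccr3 lay under the filter.

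Lgals7, the galectin of stratified epithelia, was at 9.47 and 8.75 and then at 8.30 and 8.26, and fell by 0.83 (SE 0.18, limma adjusted p = 0.0414), while controls had -0.23 (SE 0.18). The difference from control was -0.60 (SE 0.26, unadjusted p = 0.0378, adjusted p = 0.623). Of 12 skin and hair genes none passed, and their score was -0.33 and -0.28 at PND35 and -0.30 in both pools at PND50. Emb, a partner of monocarboxylate transporters, fell by 0.90 (SE 0.21), and Samm50, which inserts proteins into the outer mitochondrial membrane, by 0.65 (SE 0.12).

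Mammary epithelial genes showed no call between the ages after genistein. Of 23 luminal genes 7 were positive and 16 negative, with a median of -0.10. Elf5, the transcription factor of alveolar progenitors, was at 10.44 and 10.28 at PND35 and at 10.50 and 10.17 at PND50, so that the ages overlapped (-0.02, SE 0.13, limma adjusted p = 0.938). Gata3, which keeps luminal cells differentiated, was at 12.07 and 11.64 and then at 12.04 and 11.95 (0.14, SE 0.13), and overlapped too. The splicing factor gene Esrp1 had -0.42 (SE 0.15), and the keratin genes Krt8 and Krt18 had -0.21 (SE 0.09) and -0.20 (SE 0.11), none past the test. Of 15 basal and myoepithelial genes 11 were negative (median -0.09). Krt17, a keratin of basal cells, was at 8.48 and 8.03 and then at 7.77 and 7.98, and Krt14 was at 9.13 and 9.06 and then at 8.74 and 8.64. Neither passed (-0.38, SE 0.21, and -0.40, SE 0.27). The direction of both medians rests on 1 pool: without genistein PND35 replicate 1 they were 0.01 (luminal) and 0.06 (basal).

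In the control pools the medians of these lists were 0.36 (luminal, 2 genes higher by the test) and 0.46 (basal, 3 genes), beside 0.627% higher among all genes there. The luminal median was 0.10 after vinclozolin and 0.53 after the mixture. The basal median was 0.10 after vinclozolin and 0.12 after the mixture, so a median below that of controls was not particular to genistein. In Elf5 the control pools went from 9.82 and 9.60 to 10.32 and 10.49, a rise of 0.69 (SE 0.13, limma adjusted p = 0.0373). At an unadjusted p under 0.05, 17 of 23 luminal and 12 of 15 basal genes had a lower (more negative) signed age change after genistein than in controls, against 5.62% of all genes, and 0 of 11796 genes passed after adjustment. The age changes differed by -0.72 in Elf5 (SE 0.19), -1.35 in Krt17 (SE 0.30) and -0.83 in Esrp1 (SE 0.21), each with a limma adjusted p of 0.507. At PND35 the luminal score was 0.18 and -0.02 in the genistein and -0.24 and -0.39 in the control pools. At PND50 the score was 0.04 and -0.05 after genistein and 0.04 and 0.13 in controls. The direct comparison of genistein with control called 0 genes at PND35 (limma, 1311 at an unadjusted p under 0.05) and 0 at PND50 (307). The count of 17 luminal genes was 10 without genistein PND35 replicate 1 or genistein PND50 replicate 2, and 11 without control PND35 replicate 2 or control PND50 replicate 2. The basal count of 12 was 5 without genistein PND35 replicate 1, 8 without genistein PND50 replicate 2, and 8 to 9 without any single control pool. The control contrast and the genistein contrast share no pool.

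**Figure D3:**
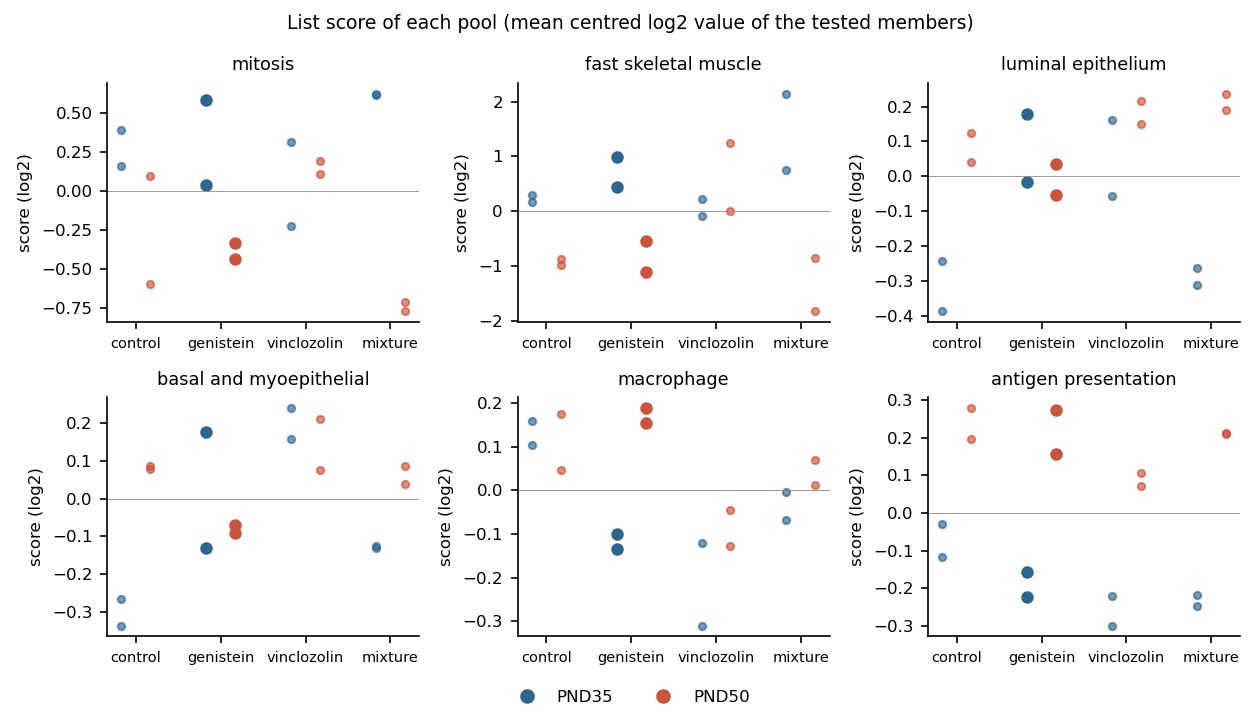
Score of each of the 16 pools (mean centred log2 value over the tested members) for 6 lists, by treatment, blue at PND35 and red at PND50. The luminal scores of the genistein pools overlap between the ages (0.18 and -0.02 against 0.04 and -0.05), while the mitosis scores do not (0.03 and 0.58 against -0.44 and -0.34).

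Milk genes did not pass either. Of 20 milk protein and secretion genes 13 were positive (median 0.08). Csn2, the beta casein gene, was at 7.75 and 10.47 at PND35 and at 9.88 and 8.09 at PND50, with a spread between like pools wider than any age difference (-0.13, SE 0.98). Glycam1, a milk mucin, was at 8.60 and 12.35 and then at 9.80 and 8.23. The whey acidic protein gene Wap was at 8.10 and 8.63 and then at 8.68 and 7.79. The 3 genes overlapped between the ages. Lalba, which encodes alpha-lactalbumin, was at 11.97 and 11.61 and then at 12.31 and 12.15, without overlap, but its difference of 0.44 (SE 0.12) did not pass (adjusted p = 0.0727). Csn3, the kappa casein gene, had 0.31 (SE 0.13) and Csn1s1 0.01 (SE 0.11).

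Hormone receptors and growth factors held 1 call. The estrogen receptor gene Esr1 was at 10.23 and 10.27 and then at 10.26 and 10.63 (0.19, SE 0.13, limma adjusted p = 0.415). The progesterone receptor gene Pgr was at 10.17 and 8.90 and then at 9.64 and 9.95, so the PND35 pools differed more from each other than the ages did. The prolactin receptor gene Prlr had 0.09 (SE 0.14), Areg, the ligand that carries the estrogen signal to the stroma, had 0.09 (SE 0.26), and Wnt4, a ligand downstream of progesterone, had -0.39 (SE 0.11, adjusted p = 0.0717). None of 17 hormone receptor genes or 16 estrogen-responsive genes passed, with medians of 0.01 and 0.03. Esr2 and Tnfsf11 lay under the filter. Igfbp6, a binding protein that favours IGF2, was at 10.87 and 10.88 and then at 11.26 and 11.37, and rose by 0.44 (SE 0.09, adjusted p = 0.0361). It was the 1 riser of 18 growth factor genes, against 0.814% of all genes. Axin2, a feedback target of Wnt signalling, was at 7.76 and 7.80 and then at 8.19 and 8.15, and rose by 0.39 (SE 0.08, adjusted p = 0.0372). It was the 1 riser of 19 Wnt genes, beside the same 0.814%. Neither the Igfbp6 nor the Axin2 call held in all settings, and neither held with the muscle covariate. In controls Axin2 had -0.03 (SE 0.08), a difference of 0.42 (SE 0.12, unadjusted p = 0.00378, adjusted p = 0.517).

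In the fat pad and matrix no gene passed. All 16 fatty acid synthesis genes were positive (median 0.21), but the pools did not overlap upward for only 2 of them, against 18.9% of all genes. The list score was 0.22 and -0.26 at PND35 and 0.27 and 0.11 at PND50. Without genistein PND35 replicate 2 the genes were 8 positive and 8 negative, with a median of 0.00. Elovl6, an elongase, was at 12.26 and 11.22 and then at 12.56 and 12.15 (0.61, SE 0.55). Of 21 white adipocyte genes 13 were negative (median -0.06; -0.23 in controls), and Adipoq had 0.03 (SE 0.10). Of 19 collagen and fibrous matrix genes 12 were negative (median -0.07), led by Col4a1 of the basement membrane (-0.46, SE 0.13, limma adjusted p = 0.079). Medians were 0.06 in 14 endothelial genes and 0.13 in 14 circadian clock genes. Of 28 oxidative phosphorylation genes 25 were negative (median -0.16, and -0.16 in controls). Among them 1 passed, against 1.96% lower among all genes: Cox5b, a subunit of complex IV, fell by 0.27 (SE 0.06, adjusted p = 0.0469). Cox5b did not pass after quantile normalization, after median centring or with the muscle covariate.

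Small falls were also seen in families of RNA and protein handling genes, which held 36 of the 231 lower genes among 301 tested members. These families were picked by symbol after the called genes had been seen, so their counts describe and test nothing, beside 1.96% lower among all genes. All 17 heterogeneous nuclear ribonucleoproteins, which package and splice transcripts, were negative (median -0.26), and 4 fell. Hnrnpf was at 9.90 and 9.93 at PND35 and at 9.31 and 9.47 at PND50, and fell by 0.53 (SE 0.08, limma adjusted p = 0.02). Hnrnpa1 fell by 0.52 (SE 0.09). All 11 serine and arginine rich splicing factors were negative (median -0.27) with 3 falling, among them Srsf3, at 9.39 and 9.41 and then at 8.84 and 8.96 (-0.50, SE 0.11). Of 8 subunits of the chaperonin that folds actin and tubulin 3 fell (median -0.30), led by Tcp1 (-0.47, SE 0.08). Of 39 proteasome genes 7 fell (median -0.14), led by Psma4 (-0.45, SE 0.08), and Psmb9, the interferon-inducible subunit, had 0.33. Of 71 cytosolic ribosomal protein genes 7 fell (median -0.16), and Rps23, at 10.69 and 10.75 and then at 10.19 and 10.35, fell by 0.45 (SE 0.08). Ribosomal protein genes have many processed copies that a probe set may also read.

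Every one of the 10 families had a negative median under all 3 scalings, but most single calls were lost. After quantile normalization the medians were -0.20 for ribonucleoproteins, -0.20 for splicing factors, -0.23 for the chaperonin, -0.07 for the proteasome and -0.13 for ribosomal proteins. The falling genes were then 3, 0, 1, 1 and 1 in these families. The ribosomal median was 0.02 in controls, -0.12 after vinclozolin and -0.11 after the mixture. In 20 of 71 genes the genistein age change was more negative than in controls (limma, unadjusted p under 0.05), against 5.62% of all genes. That count was 14 after quantile normalization, 11 after median centring, 6 without genistein PND35 replicate 1, 7 without genistein PND50 replicate 1, and 11, 13 and 9 without control PND35 replicate 1, control PND50 replicate 1 and control PND50 replicate 2.

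**Figure D4:**
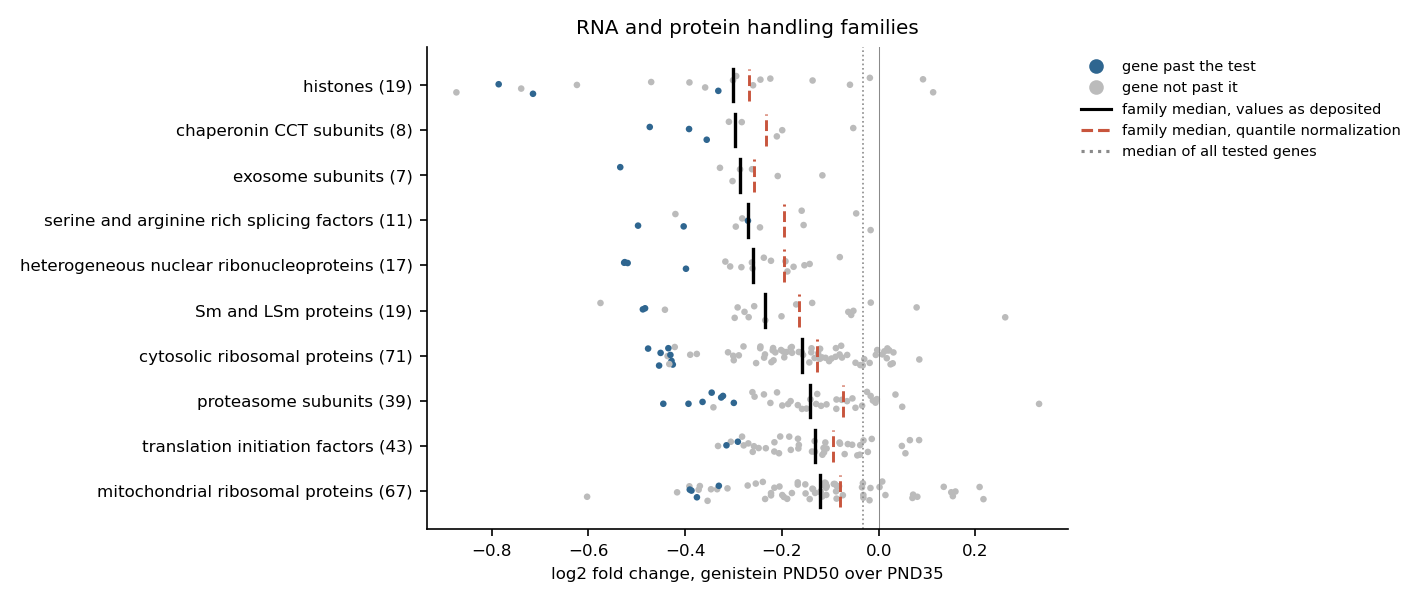
Log2 fold change between PND35 and PND50 after genistein (horizontal axis) of the members of 10 families, blue where past the limma test and grey where not. Black lines are family medians with the values as deposited, dashed red lines after quantile normalization, and the dotted line is the median of all genes (-0.03); all family medians lie to its left, from -0.12 for mitochondrial ribosomal proteins to -0.30 for histones.

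Set beside the controls, the age change after genistein mostly had the same sign. In controls 102 genes were called (74 higher and 28 lower, 0.865% of those tested). The genes called in both contrasts were 16 higher ones (16.7% of those called after genistein and 21.6% of those called in controls) and 7 lower ones (3.03% and 25%). Of the 96 genes higher after genistein 87 had a positive control change, and of the 231 lower ones 214 had a negative one. Across the 11796 genes, which are not independent replicates, the 2 sets of log2 fold changes correlated at r = 0.615 (Spearman's rho 0.530). The median change of the 231 lower genes was -0.39 after genistein and -0.17 in controls, but their selection favours the genistein value.

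No single gene was shown to change differently from controls. In the test of the difference itself 0 of 11796 genes passed (limma; 906 had an unadjusted p under 0.05, and no adjusted p was below 0.507). The median SE of such a difference was 0.133, so the design could miss differences of moderate size. Genes with the smallest p included Rasal1, a Ras inhibitor, at 7.93 and 7.72 and then at 7.76 and 7.68 after genistein, and with a control rise of 0.56 (difference -0.67, SE 0.12). Gzma (-0.73, SE 0.14), Krt17 and Bmpr1b, a receptor of bone morphogenetic proteins (-0.69, SE 0.15), were lower in their change, and Pla2g2d (0.83, SE 0.18) and Npr1, a natriuretic peptide receptor (0.64, SE 0.14), were higher. In Dcaf4, Trmt11 and Nt5dc1 the genistein change passed (-0.49, -0.45 and -0.39) and the control change was between 0.00 and 0.01. In all of these the adjusted p of the difference was 0.507. The age change after genistein differed from that after vinclozolin in 41 genes (0.348%), 39 with a higher (0.331%) and 2 with a lower change (0.017%), and from that after the mixture in 4 genes, all with a lower change (0.0339%).

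**Figure D5:**
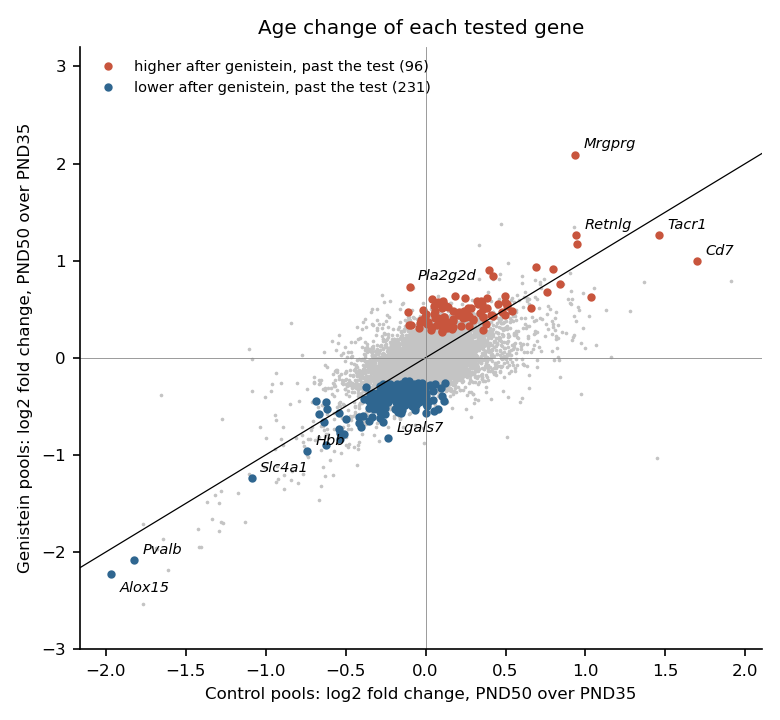
Log2 fold change of each of 11796 genes between PND35 and PND50 in the control pools (horizontal axis) and in the genistein pools (vertical axis), with the line of equal change. Genes past the limma test after genistein are red (96 higher) or blue (231 lower); most lie in the quadrants of equal sign, Cd7 below the line (1.00 against 1.70) and Mrgprg and Pla2g2d above it.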

How the data were processed

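The deposited table gives 1 value for each of 27342 probe sets and 16 arrays. Its values, from 2.2 to 13.9, were taken for log2 intensities because of that range; what background correction, normalization and log base the authors used to make these log2 values is not given in the sources here. Of the probe sets 15097 have 1 gene symbol in the platform annotation, updated through RefSeq (GRCr8), 323 have several and 11922 are unnamed here. The brightest probe set stood for a gene, and genes with a mean under the 25th percentile (5.661) were left out, which left 11796. limma 3.58.1 in R 4.3.3 fitted 8 group means over 16 arrays (8 residual degrees of freedom), with two-sided tests and a Benjamini-Hochberg adjustment over all genes of a comparison. Named genes were the 15 highest and 15 lowest past the test with non-overlapping pools, without placeholder symbols and olfactory receptors, 10 per difference of age changes, up to 6 per list with the largest changes, and a fixed panel. Named after their values were seen were Adipoq, Amd1, Ccl4, Cd74, Clec9a, Cox5b, Flt3, RT1-DMa, RT1-Da, Xcr1 and the family members. The 32 lists held 650 genes, 527 of them tested, and members and lists were chosen with earlier results of these data known. The fit was tested on simulated data. Groups and replicate numbers came from the sample titles, and the same numbers in different groups were not treated as pairs. Alternatives were other filters, scalings, probe set rules, weights, thresholds, a replicate block, a muscle covariate and each pool left out; leaving out both vinclozolin PND35 pools was added after the data were seen. Figures used matplotlib 3.10.9.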

Additional observations from a re-analysis of the deposited data

Results flagged for a closer look

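The age change after genistein differed from that after vinclozolin in 41 genes (0.348% of those tested), 39 of them higher and 2 lower, by a limma test of the difference. The leading ones were hair keratins and genes of the follicle, with differences on the log2 scale of 5.37 for Krt25, 4.38 for Krt73, 4.28 for Krtap15-1, 4.26 for Krt72, 3.93 for Krt27, 3.59 for S100a3, 3.39 for Krtap1-5, 3.39 for Dsg4, 3.37 for Krt31 and 3.13 for Krt85. In none of these 10 did the genistein pools change past the test. Krt25 stood at 5.15 and 5.12 at PND35 and at 5.09 and 5.03 at PND50. Its mean in the vinclozolin PND35 pools was 10.53. All of its genistein values lie under the filter cut of 5.661, which applies to the mean over all arrays. Krt25 was thus tested because of its level in other pools, and its genistein values are those of a dim probe set. With the 50th percentile as filter 9 genes were called in place of 41. The part of the 2 vinclozolin PND35 pools in the other differences was not tested.

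From the age change after the mixture it differed in 4 genes, all lower (0.0339%). Slc5a8, a transporter of short-chain fatty acids, differed by -2.23 (SE 0.27, limma adjusted p = 0.0384), with an age change of 0.21 after genistein and 2.44 after the mixture. Its genistein pools overlapped between the ages, at 8.66 and 7.96 at PND35 and at 8.57 and 8.48 at PND50. Met, the receptor of hepatocyte growth factor, differed by -0.68 (SE 0.09), Podxl, a sialomucin of apical membranes, by -0.97 (SE 0.13) and Cytip, a regulator of lymphocyte adhesion, by -1.17 (SE 0.17). Among genes that did not pass, Btn1a1 of the milk fat globule differed by -1.06 and Vtcn1, an immune checkpoint ligand of epithelia, by -1.47 (adjusted p = 0.0716 for both).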

How the results depend on the processing

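The 327 genes called between the ages after genistein became 159 with no filter, 140 with quantile normalization, 178 with median centring, 618 over all probe sets, 59 with array weights, 1 with the genistein pools alone (Alox15), 1 with the muscle covariate (Retnlg), 1107 at an adjusted p of 0.1 and 40 with a 1.5-fold minimum. Leaving out 1 pool gave 0 to 432. The 102 control genes became 255 over all probe sets, 375 with array weights, 176 with the control pools alone, 5 with the muscle covariate, 348 at an adjusted p of 0.1, 57 with a 1.5-fold minimum and 175 without both vinclozolin PND35 pools, and 2 to 177 without 1 pool. The difference from control stayed at 0 in all settings run. Apart from the fits without 1 pool, 779 to 1057 genes had an unadjusted p under 0.05 (limma). Over all probe sets, 1585 of 20506 probe sets did. The 41 genes of the difference from vinclozolin became 9 with the 50th percentile as filter, 81 over all probe sets, 21 with the groups compared alone, 24 with the muscle covariate, and 30 to 133 without 1 pool. The 4 of the difference from the mixture became 2 with median centring, 0 over all probe sets, with the groups compared alone and with the muscle covariate (2594, 1495 and 970 at an unadjusted p under 0.05), 41 at an adjusted p of 0.1, 7 without both vinclozolin PND35 pools, and 0 to 153 without 1 pool (153 without genistein PND35 replicate 2). The causes were not tested.

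Of 46 named genes called after genistein none changed sign in any setting, and none stayed called in all; 33 stayed called with quantile normalization, 35 with median centring and 46 over all probe sets. A fit with the replicate number as a block called 286 genes, 253 of them among the 327. Deviations of same-numbered genistein pools from their group means correlated at 0.0915 between the ages, and over all 28 pairs of groups from -0.366 to 0.301. Such values cannot show whether same-numbered pools belonged together, because a weak pairing could give them too. No detection calls were used, so dim genes were judged by their value alone.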
